A study of Mus musculus with 15 samples.

Results

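The thrombospondin genes Thbs1, Thbs2, Thbs3 and Thbs4 and the cartilage oligomeric matrix protein gene Comp were taken by their symbols from a table of normalized counts of 36727 genes in mouse hearts. Each symbol had 1 identifier, and all 5 genes passed the filter on low values that left 16690 genes for testing (at least 10 normalized counts in at least 3 hearts). The hearts came from a mouse study of the mitochondrial deacylase SIRT5 in pressure overload. Male wild-type (WT) mice and their SIRT5-overexpressing (SIRT5OE) littermates, 4 to 8 months old, underwent sham surgery or transverse aortic constriction (TAC), which narrows the aortic arch so that the left ventricle pumps against a raised pressure. RNA was taken from whole hearts 4 weeks later and depleted of ribosomal RNA. The sham groups had 4 WT and 3 SIRT5OE hearts, and the TAC groups had 4 of each genotype. SIRT5OE mice carried a SIRT5 cassette with the ubiquitous CAGGS promoter and a floxed STOP sequence in the 3′ untranslated region of Col1a1, derived from 1 embryonic stem cell clone. Sox2-Cre had deleted the STOP sequence, so the transgene was active in the whole body and not in cardiomyocytes alone.

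Thrombospondins are large, calcium-binding glycoproteins of the extracellular matrix that sit at low levels in most adult tissues and are made at sites of injury and remodeling. Thbs1 and Thbs2 form trimers and carry type 1 repeats, which are missing from the pentameric members Thbs3, Thbs4 and Comp. The trimeric members bind the receptors CD36 and CD47 and restrain the growth of blood vessels, and Thbs1 also activates latent TGF-beta. The pentameric members bind collagens and other matrix proteins, and in mice Thbs4 also acts inside the cell, in the endoplasmic reticulum, where it interacts with the stress sensor ATF6.

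The 5 genes lie on 5 chromosomes. On GRCm38 (GENCODE vM21), Thbs1 spans chr2:118111876-118127133 (plus strand, 22 exons), Thbs2 chr17:14665500-14694235 (minus strand, 22 exons) and Thbs3 chr3:89215180-89226837 (plus strand, 23 exons). Thbs4 spans chr13:92751590-92794818 (minus strand, 22 exons) and Comp chr8:70373558-70382066 (plus strand, 19 exons), with exons counted in the longest coding transcript. RefSeq promoter sequences (GRCm38.p6, 250 bases before to 50 bases after the start, 5′ to 3′ on the gene's strand) matched 3 of the 5 genes, Thbs2, Thbs3 and Thbs4. They are shown because Thbs3 and Thbs4 rose with TAC while Thbs2 was not called. The Thbs4 window is chr13:92794769-92795068 (minus strand), the Thbs3 window chr3:89214930-89215229 (plus strand) and the Thbs2 window chr17:14694213-14694512 (minus strand). Capitals mark matches to any of 4 motifs searched on both strands: the TEAD motif (CATTCC or GGAATG), the AP-1 motif (TGANTCA), the TATA box (TATAAA or TTTATA) and the GC box (GGGCGG or CCGCCC).
Thbs4: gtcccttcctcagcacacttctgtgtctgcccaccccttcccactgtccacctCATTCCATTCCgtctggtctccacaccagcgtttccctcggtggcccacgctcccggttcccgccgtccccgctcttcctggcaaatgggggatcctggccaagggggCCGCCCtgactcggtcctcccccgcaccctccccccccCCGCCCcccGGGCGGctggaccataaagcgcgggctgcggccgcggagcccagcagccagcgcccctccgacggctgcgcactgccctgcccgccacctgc
Thbs3: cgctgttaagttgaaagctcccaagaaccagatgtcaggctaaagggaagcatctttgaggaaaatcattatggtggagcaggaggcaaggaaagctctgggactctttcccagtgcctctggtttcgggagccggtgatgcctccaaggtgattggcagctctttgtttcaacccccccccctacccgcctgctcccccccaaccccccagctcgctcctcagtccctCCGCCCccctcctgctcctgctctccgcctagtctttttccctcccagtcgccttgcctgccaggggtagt
Thbs2: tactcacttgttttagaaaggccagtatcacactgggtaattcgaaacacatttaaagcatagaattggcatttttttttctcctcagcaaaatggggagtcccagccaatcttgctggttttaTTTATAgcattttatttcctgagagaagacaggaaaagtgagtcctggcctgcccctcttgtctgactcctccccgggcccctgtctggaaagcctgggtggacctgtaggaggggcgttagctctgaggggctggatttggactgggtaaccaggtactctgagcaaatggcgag
Thbs4 held a pair of TEAD matches that overlap by 1 base, at -197 and -192 from the start, and 3 GC boxes, at -89, -51 and -42. Thbs3 held 1 GC box at -21, and Thbs2 held 1 TATA box match at -126. None of the 3 windows held an AP-1 match. Of 32851 RefSeq promoter windows of this length, 14.7% held a TEAD match, 7.81% an AP-1 match, 13.6% a TATA box and 35.7% a GC box. The windows also differed in base composition, with 72% G and C in Thbs4, 59% in Thbs3 and 48.3% in Thbs2.

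Normalized counts summed to between 56233957 and 74282028 per heart, lowest in the 4 WT TAC hearts (at most 61577670). Sirt5 itself was at 1574 to 2365 normalized counts in the 8 WT hearts and at 30432 to 43932 in the 7 SIRT5OE hearts, as the labels say. The 6 cardiomyocyte markers (Myh6, Tnnt2, Actc1, Ryr2, Pln, Tnni3) summed to at least 1085752 normalized counts in every heart, so the tissue matched its label. Replicate 3 of the SIRT5OE TAC group (SIRT5OE TAC 3) stood apart from the other hearts of its group in all 5 genes, and the main results that rest on it are given with and without it. The tests below are limma estimates on log2(normalized count + 1), 2-sided, with Benjamini-Hochberg adjustment over the 16690 genes and a call at an adjusted p under 0.05. Because each heart is a sample of whole tissue, fewer cells of a type and less RNA per cell cannot be told apart.

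Pressure overload raised 4 of the 5 genes in WT hearts. Comp and Thbs4 had the 5th and the 6th highest log2 fold change of the 16690 genes, Thbs1 ranked 67 and Thbs3 ranked 581. Thbs2 was the exception. Across all genes 17.3% were called higher and 16.5% lower in WT TAC than in WT sham hearts. The median log2 fold change was 3.87 over the 5 genes and -0.01 over all genes.

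**Figure D1:**
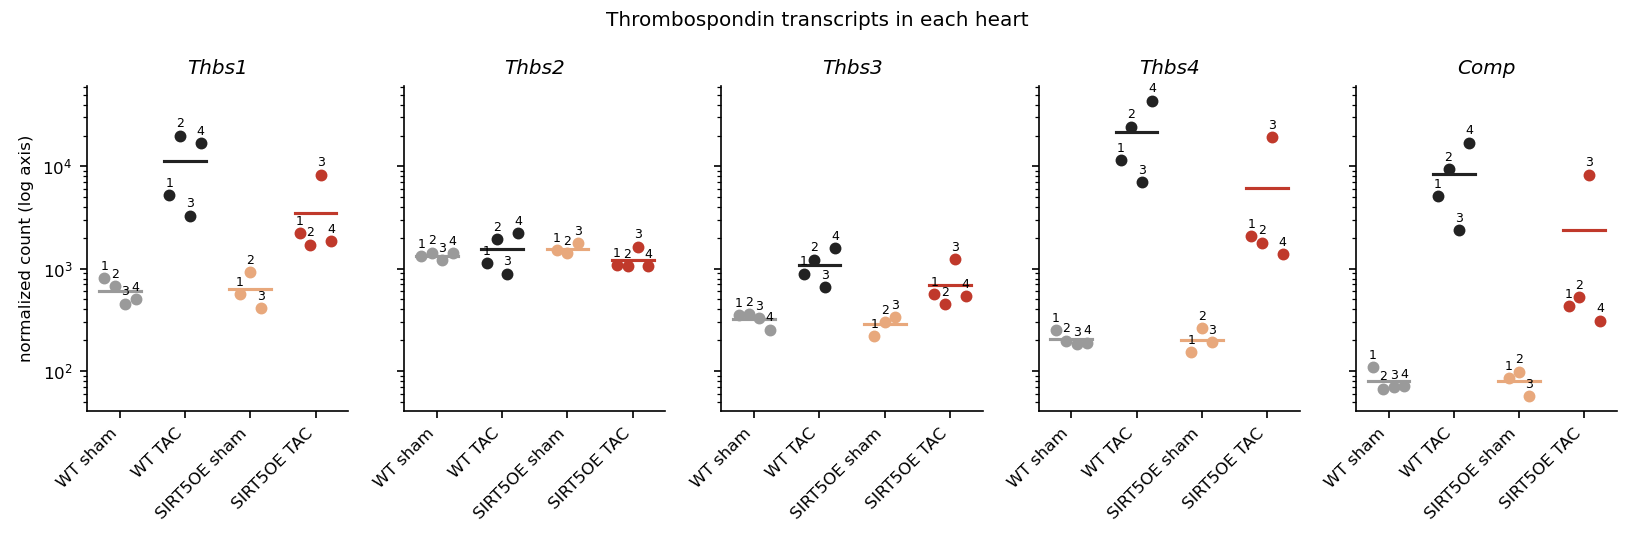
Normalized counts (log axis) of the 5 genes in the 15 hearts, with 1 point per heart numbered by replicate and a bar at each group's arithmetic mean (n = 4, 4, 3 and 4). Every WT TAC heart lay above every sham heart in Thbs1, Thbs3, Thbs4 and Comp, and SIRT5OE TAC 3 was the highest heart of its group in all 5 genes.

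Thbs4, the pentameric member known from injured muscle and heart, had, with Comp, the largest change of the family under load in both genotypes. WT sham hearts 1 to 4 held 249, 198, 183 and 189 normalized counts of Thbs4 and WT TAC hearts 1 to 4 held 11530.4, 24395, 7032 and 43703. SIRT5OE sham hearts 1 to 3 held 154, 262 and 190.2, and SIRT5OE TAC hearts 1 to 4 held 2078, 1788, 19200.1 and 1388. No TAC heart overlapped a sham heart. In the SIRT5OE TAC group 3 hearts lay below every WT TAC heart, while the remaining one, SIRT5OE TAC 3, lay between WT TAC 1 and WT TAC 2. The mean of the WT hearts was 205 ± 30.3 (SD, n = 4) after sham surgery and 21665 ± 16432 (n = 4) after TAC. That of the SIRT5OE hearts was 202 ± 55.3 (n = 3) after sham surgery and 6114 ± 8729 (n = 4) after TAC. With TAC, Thbs4 rose by a log2 fold change of 6.39 ± 0.66 (SE) in WT hearts (83.9-fold, limma adjusted p = 2.16e-05) and by 3.99 ± 0.71 in SIRT5OE hearts (15.9-fold, adjusted p = 0.00703).

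Comp, a protein of cartilage and tendon that binds collagens and promotes the assembly of their fibrils, followed the same course from a lower level per kilobase of transcript. WT sham hearts 1 to 4 held 108, 67.0, 69.8 and 70.6 normalized counts of Comp, and WT TAC hearts 1 to 4 held 5108, 9433, 2389 and 17036. SIRT5OE sham hearts 1 to 3 held 85.4, 98.5 and 56.6, and SIRT5OE TAC hearts 1 to 4 held 428, 523, 8286 and 311. The sham and TAC hearts did not overlap, and all SIRT5OE TAC hearts except replicate 3 stayed below the lowest WT TAC heart. In WT hearts TAC raised Comp from 78.9 ± 19.6 (SD, n = 4) to 8492 ± 6392 (n = 4). This was a log2 fold change of 6.41 ± 0.79 (SE, 85.0-fold, limma adjusted p = 5.41e-05). In SIRT5OE hearts the means were 80.2 ± 21.4 (n = 3) and 2387 ± 3934 (n = 4), a log2 fold change of 3.46 ± 0.85 (11.03-fold, limma adjusted p = 0.0295).

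Thbs3, a pentameric member that in mouse cardiomyocytes is found in the endoplasmic reticulum, had the smallest called change. WT sham hearts 1 to 4 held 349, 359.5, 328 and 254 normalized counts of Thbs3, and WT TAC hearts 1 to 4 held 896, 1225, 664 and 1578. SIRT5OE sham hearts 1 to 3 held 220.2, 299.6 and 338, and SIRT5OE TAC hearts 1 to 4 held 562, 452, 1241 and 538. All TAC hearts lay above all sham hearts, and SIRT5OE TAC 3 was again within the WT TAC range while the other 3 were below it. The log2 fold change with TAC was 1.69 ± 0.29 (SE, 3.23-fold, limma adjusted p = 0.000495) in WT hearts and 1.19 ± 0.32 (2.28-fold, limma adjusted p = 0.0418) in SIRT5OE hearts. Mtx1, a gene of the mitochondrial outer membrane, is annotated on the opposite strand across Thbs3, and the sources used here do not say that the counting used strand. Reads from their shared bases can then not be told apart. Mtx1 was at 914 ± 63.3 normalized counts in WT sham and 899.7 ± 176 in WT TAC hearts (log2 fold change -0.04, limma adjusted p = 0.837).

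Thbs1, the trimeric member that activates latent TGF-beta, already had a higher normalized count per kilobase of transcript than Thbs4 and Comp in every sham heart. WT sham hearts 1 to 4 held 809.7, 671, 454 and 506 normalized counts of Thbs1, and WT TAC hearts 1 to 4 held 5239, 19976, 3303 and 16838. SIRT5OE sham hearts 1 to 3 held 559.8, 923 and 409.9, and SIRT5OE TAC hearts 1 to 4 held 2207, 1719, 8279 and 1847. Each TAC heart exceeded every sham heart. SIRT5OE TAC 3 exceeded WT TAC 1 and WT TAC 3, and the other SIRT5OE TAC hearts were below all WT TAC hearts. In WT hearts the rise was from 610.3 ± 162 (SD, n = 4) to 11339 ± 8299 (n = 4), a log2 fold change of 3.87 ± 0.55 (SE, 14.7-fold, limma adjusted p = 0.000123). In SIRT5OE hearts it was from 631 ± 264 (n = 3) to 3513 ± 3184 (n = 4), a log2 fold change of 2.21 ± 0.59 (4.62-fold, limma adjusted p = 0.0424).

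Thbs2, the trimeric member that in mice clears the gelatinase MMP2 through LRP1 and shapes collagen fibrils, was not called in any comparison. WT sham hearts 1 to 4 held 1316, 1434, 1207 and 1414 normalized counts of Thbs2, and WT TAC hearts 1 to 4 held 1123, 1932, 896 and 2231. SIRT5OE sham hearts 1 to 3 held 1511, 1410.5 and 1762, and SIRT5OE TAC hearts 1 to 4 held 1076, 1055, 1642 and 1059. The WT TAC hearts split around the sham range, with replicates 2 and 4 above every WT sham heart and replicates 1 and 3 below every one. Of the SIRT5OE TAC hearts, replicates 1, 2 and 4 were below every SIRT5OE sham heart and replicate 3 was within their range. The log2 fold change with TAC was 0.11 ± 0.23 (SE, 95% interval -0.38 to 0.60, limma adjusted p = 0.758) in WT hearts and -0.39 ± 0.25 (95% interval -0.92 to 0.14, limma adjusted p = 0.387) in SIRT5OE hearts.

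In SIRT5OE hearts the 4 genes called higher with TAC were the same as in WT hearts, beside 3.12% of all genes called higher and 1.86% lower. Thbs4 ranked 13, Comp 28, Thbs1 114 and Thbs3 526 by log2 fold change. The call of Thbs4 held in every alternative tried, with adjusted p at most 0.0469. The other 3 calls were less secure. The call of Comp ended without any 1 of the SIRT5OE sham hearts or in a fit of the compared groups alone (adjusted p 0.0645 to 0.138 over the alternatives that ended it). The call of Thbs1 ended without any 1 of the WT or SIRT5OE sham hearts or without SIRT5OE TAC 1 or 3 (adjusted p 0.0521 to 0.189 over the alternatives that ended it). That of Thbs3 ended without WT sham 1, 2 or 3, WT TAC 1, any 1 of the SIRT5OE sham hearts or SIRT5OE TAC 1, 3 or 4 (adjusted p 0.0501 to 0.174). In each case the direction stayed the same. Over all genes the 831 calls of this comparison became 126 to 299 without 1 of the SIRT5OE sham hearts and 306 without SIRT5OE TAC 3. Without SIRT5OE TAC 3 the log2 fold change of Thbs4 with TAC was 3.13 ± 0.46 (limma adjusted p = 0.00311) and that of Comp 2.38 ± 0.50 (limma adjusted p = 0.0221). That of Thbs1 was then 1.68 ± 0.52 (limma adjusted p = 0.115) and that of Thbs3 0.87 ± 0.26 (limma adjusted p = 0.103).

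**Figure D2:**
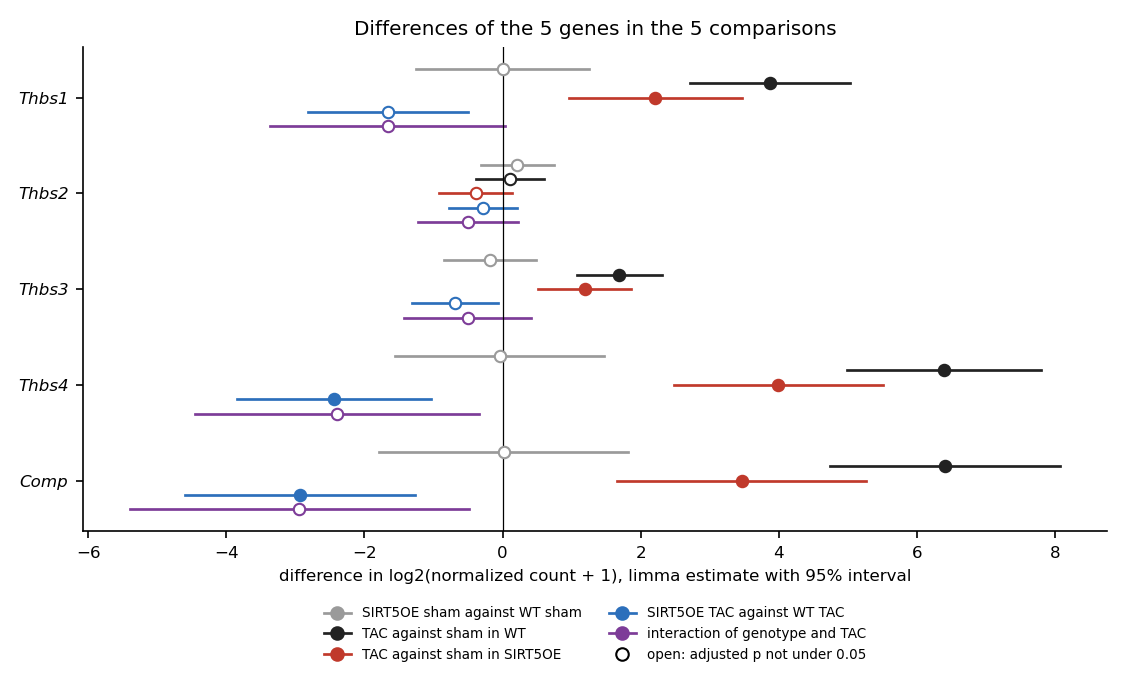
Differences in log2(normalized count + 1) of the 5 genes in the 5 comparisons, with points at the limma estimate, lines over the 95% interval and filled points at an adjusted p under 0.05. The estimates for TAC are above 0 in Thbs1, Thbs3, Thbs4 and Comp in both genotypes, and the sham comparison of the genotypes is centred near 0 in all 5 genes.

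Without surgical load none of the 5 genes was called different between the genotypes, and none had an unadjusted limma p under 0.05. In the sham hearts 0.018% of all genes were called higher with SIRT5 overexpression and 0% lower (3 and 0 of 16690 by limma, with 428 at an unadjusted p under 0.05). The log2 differences of SIRT5OE sham from WT sham were 0.00 for Thbs1 (95% interval -1.25 to 1.26), 0.21 for Thbs2 (-0.32 to 0.75), -0.18 for Thbs3 (-0.86 to 0.49), -0.04 for Thbs4 (-1.56 to 1.47) and 0.01 for Comp (-1.79 to 1.82). The ranges of the 2 sham groups overlapped in all 5 genes. These intervals rest on the spread shared by all 4 groups, TAC hearts included, and not on the 4 and 3 sham hearts alone. In Thbs4 the SD was 14.8% of the mean in WT sham and 27.4% in SIRT5OE sham hearts. After TAC it was 75.8% in WT and 142.8% in SIRT5OE hearts. Whether the genotypes are equal in sham hearts was not tested.

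Under load, Thbs4 and Comp were lower in SIRT5OE than in WT hearts, beside 3.43% of all genes called lower and 3.8% called higher. The log2 difference of SIRT5OE TAC from WT TAC was -2.44 ± 0.66 (SE, limma adjusted p = 0.0408) for Thbs4 and -2.93 ± 0.79 (limma adjusted p = 0.0403) for Comp. These were the 59th and the 23rd lowest log2 differences of the 16690 genes. The other 3 genes were not called: Thbs1 differed by -1.66 ± 0.55 (95% interval -2.82 to -0.50, limma adjusted p = 0.0672), Thbs3 by -0.69 ± 0.29 (-1.31 to -0.07, limma adjusted p = 0.136) and Thbs2 by -0.28 ± 0.23 (-0.78 to 0.21, limma adjusted p = 0.438). The paper reports a significantly smaller rise of Thbs1 with TAC in SIRT5OE mice, without naming the test at that point. Its methods name a count model for differential expression and analysis of variance for comparisons of several groups. Neither was run here, and the limma p of Thbs1 was 0.00787 before adjustment over the 16690 genes. A smaller rise is a statement about the interaction, given below. The comparison of SIRT5OE TAC with WT TAC uses the same WT TAC hearts as the TAC comparison in WT and the same SIRT5OE TAC hearts as that in SIRT5OE. Its SEs and p-values rest on the spread shared by all 4 groups, sham hearts included. That spread was unequal. In Comp the highest heart held 1.62 times the lowest in WT sham and 1.74 times in SIRT5OE sham. After TAC it held 7.13 times in WT and 26.7 times in SIRT5OE hearts. The SEs therefore do not measure the spread of the TAC hearts alone.

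Both calls lay close to the threshold and depended on which hearts were in the fit. Each was lost without any 1 of the 7 sham hearts, which enter through the shared spread and the filter, and without WT TAC 2 or 4 or SIRT5OE TAC 1, 2 or 4. The call of Comp was lost without WT TAC 1 too. Over all alternatives that ended them, the adjusted p was 0.0524 to 0.184 for Thbs4 and 0.05004 to 0.182 for Comp. The calls over all genes moved as widely, from 7.24% of genes in either direction with all hearts (1208 of 16690) to 20.3% without WT TAC 3, 16.4% without SIRT5OE TAC 3 and 5 to 13 genes in all without SIRT5OE TAC 2, SIRT5OE TAC 4, WT TAC 2 or WT TAC 4. In a fit of the compared groups alone 3 genes of the whole table were called. Without WT TAC 3, or without SIRT5OE TAC 3, 4 of the 5 genes were called lower. Without SIRT5OE TAC 3 the log2 differences were -3.31 ± 0.43 for Thbs4 (limma adjusted p = 0.00130), -4.01 ± 0.46 for Comp (0.000815), -2.19 ± 0.49 for Thbs1 (0.00942) and -1.01 ± 0.24 for Thbs3 (0.0137), and Thbs2 was at -0.44 ± 0.23 (0.204). SIRT5OE TAC 3 held 19.7 times the mean of the other 3 hearts of its group in Comp, 10.96 times in Thbs4, 4.30 times in Thbs1, 2.40 times in Thbs3 and 1.54 times in Thbs2. The other 3 hearts were close to each other, at 1751 ± 346 normalized counts (SD, n = 3) for Thbs4 and 420.4 ± 106 for Comp.

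**Figure D3:**
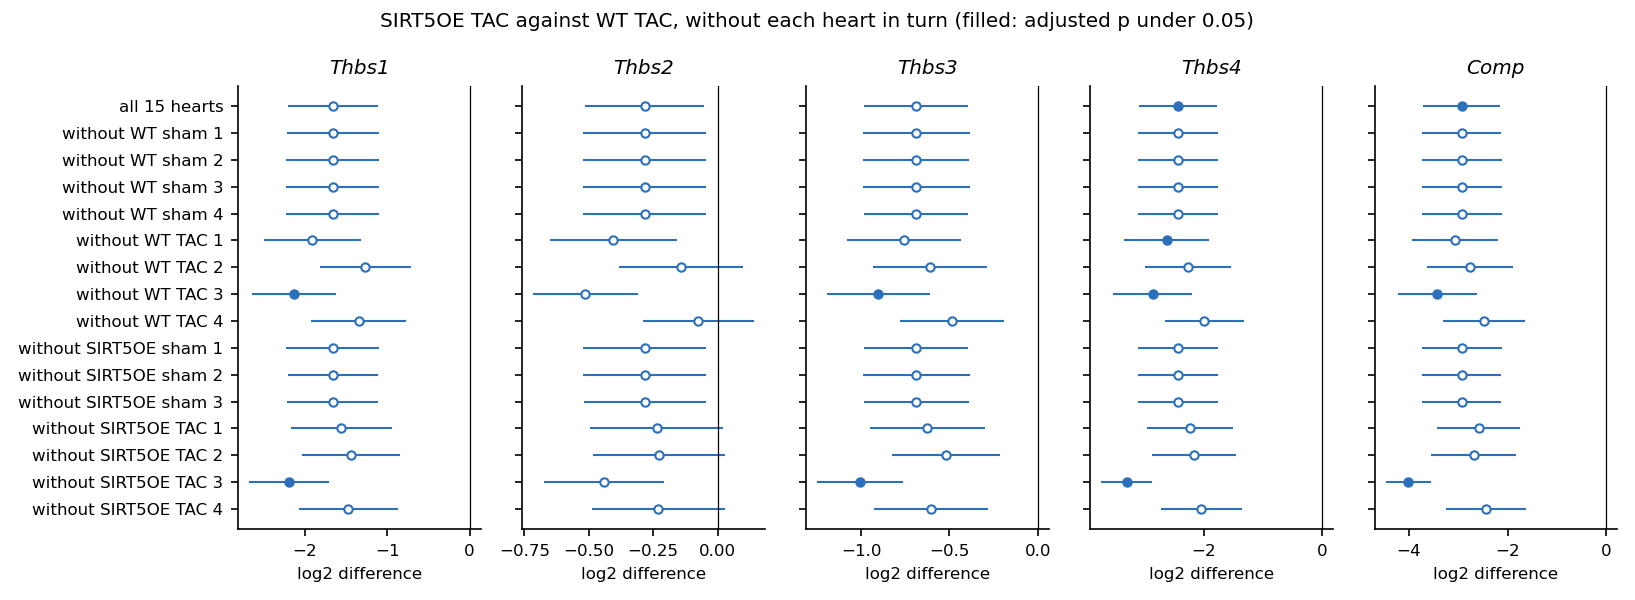
Log2 difference of SIRT5OE TAC from WT TAC for each of the 5 genes with all 15 hearts and without each heart in turn; points are limma estimates, lines are 1 SE to each side and filled points have an adjusted p under 0.05. All estimates are below 0, and Thbs1 and Thbs3 are called only without WT TAC 3 or SIRT5OE TAC 3.

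The interaction, which tests whether the response to TAC itself differed between the genotypes, was called for 0% of genes in the higher and 0% in the lower direction (limma, 2206 genes at an unadjusted p under 0.05). It was -2.95 ± 1.16 (SE, 95% interval -5.40 to -0.49) on the log2 scale for Comp and -2.40 ± 0.97 (-4.46 to -0.34) for Thbs4, both with a limma adjusted p of 0.349. Thbs1 was at -1.67 (-3.37 to 0.04), Thbs3 at -0.51 (-1.42 to 0.41) and Thbs2 at -0.50 (-1.22 to 0.23). Comp and Thbs4 were the 2 members at an unadjusted limma p under 0.05 (0.0217 and 0.0253). Without SIRT5OE TAC 3 the limma adjusted p was 0.0578 for Comp and 0.0624 for Thbs4.

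Per length, the make-up of the family changed with load. Normalized counts were divided by the length of the longest coding transcript (5848 bases for Thbs1, 5895 for Thbs2, 3190 for Thbs3, 3198 for Thbs4 and 2416 for Comp) and are given per kilobase. In WT sham hearts Thbs2 was highest at 228 ± 17.7 (SD, n = 4), followed by Thbs1 at 104 ± 27.7, Thbs3 at 101.1 ± 14.9, Thbs4 at 64.1 ± 9.48 and Comp at 32.7 ± 8.11. Thbs1 and Thbs3 did not differ beyond their spread, while the ranges of the other neighbours in this order did not overlap. In WT TAC hearts the order was Thbs4 at 6775 ± 5138, Comp at 3515 ± 2646, Thbs1 at 1939 ± 1419, Thbs3 at 342 ± 125 and Thbs2 at 262 ± 108, and the ranges of neighbours overlapped except those of Thbs1 and Thbs3. Within each of the 4 WT TAC hearts Thbs4 nevertheless stood above Comp, and Comp above Thbs1. Thbs2 made up 43.2% ± 4.46 of the family's sum per kilobase in WT sham hearts and 2.51% ± 0.919 in WT TAC hearts. Thbs4 made up 12.1% ± 0.851 and 52.2% ± 3.10, and Comp 6.13% ± 1.07 and 26.9% ± 2.85.

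In SIRT5OE sham hearts the shares were near those of WT sham, with Thbs2 at 47.8% ± 7.76 and Thbs4 at 11.2% ± 1.97 (SD, n = 3). SIRT5OE TAC hearts 1, 2 and 4 had a family sum of 1227 to 1563 normalized counts per kilobase, above the sham range of 471 to 614 and below the WT TAC range of 4113 to 24469.5. In these hearts Thbs4 took 35.4% to 41.6% of the sum, Thbs2 11.7% to 14.6% and Comp 10.5% to 15.6%. SIRT5OE TAC 3 had a sum of 11517 with 52.1% Thbs4, 2.42% Thbs2 and 29.8% Comp, all inside the WT TAC range. No test was run on the shares.

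**Figure D4:**
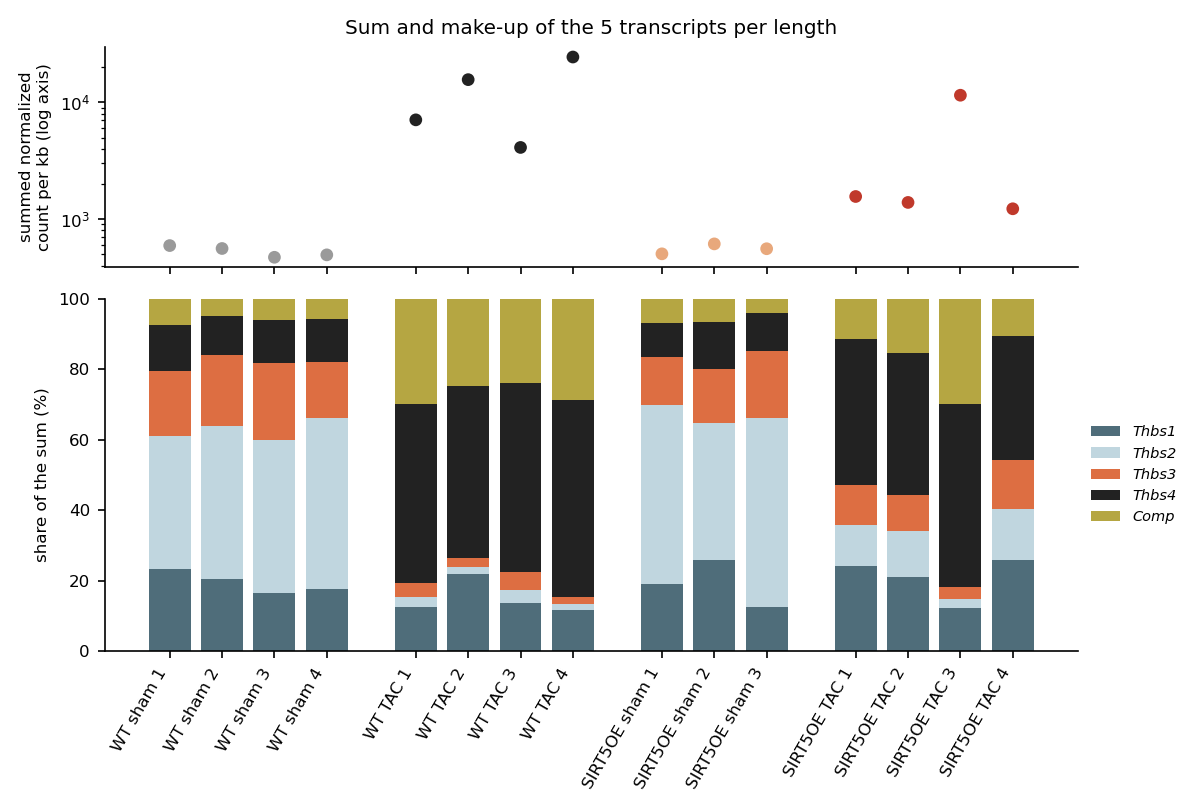
Upper panel, summed normalized count per kilobase of the 5 transcripts in each heart (log axis); lower panel, the percent share of each gene in that sum. Thbs2 holds the widest band in every sham heart, and Thbs4 with Comp hold most of the sum in the 4 WT TAC hearts and SIRT5OE TAC 3.

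In the TAC groups the members ranked the hearts much alike, while in the sham groups their orders differed. In WT TAC hearts Thbs2, Thbs3, Thbs4 and Comp ran from replicate 4 to 2, 1 and 3, highest first, and only Thbs1 put replicate 2 before replicate 4. In SIRT5OE TAC hearts all 5 genes put replicate 3 first, and the order of the other 3 hearts was 1, 4, 2 in Thbs1, Thbs2 and Thbs3, 1, 2, 4 in Thbs4 and 2, 1, 4 in Comp. The spread was wide for most of them, with the highest WT TAC heart at 7.13 times the lowest in Comp, 6.22 times in Thbs4, 6.05 times in Thbs1, 2.49 times in Thbs2 and 2.38 times in Thbs3. Over the 15 hearts, after subtracting each group's mean on the log2 scale, the Pearson correlation was highest between Thbs4 and Comp (r = 0.98, and 0.93 without SIRT5OE TAC 3) and lowest between Thbs2 and Comp (0.74). Without SIRT5OE TAC 3 the lowest was that between Thbs3 and Comp (0.69). These values describe 15 hearts that share a preparation and scaling. Thbs2 thus varied with the others from heart to heart (r 0.74 to 0.83) although its group means were not called different. The TAC hearts weigh most in these r values, because their spread was wider. In Thbs2 the SD was 7.78% of the mean in WT sham and 11.6% in SIRT5OE sham hearts. After TAC it was 41.3% in WT and 23.9% in SIRT5OE hearts.

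The genes with a mean of at least 100 normalized counts that followed each member most closely by the same measure, over the same 15 hearts, were these. For Thbs4 they were Prelp, a leucine-rich matrix proteoglycan (r = 0.98), Ssc5d (0.98) and Txndc5, a protein disulfide isomerase of the endoplasmic reticulum (0.98). For Comp they were Dkk3 (0.98), Ltbp2, a latent TGF-beta binding protein of the matrix (0.97), and Prelp (0.97). For Thbs1 they were Enpp1 (0.96), the transcription factor gene Runx1 (0.96) and Pdia4, another disulfide isomerase (0.96). For Thbs3 they were Ccn2, which encodes a matricellular protein induced by TGF-beta (0.95), the focal adhesion gene Zyx (0.94) and Adam15 (0.94). For Thbs2 they were Prkab2, a subunit of the AMP-activated kinase (0.97), 1110002E22Rik (0.95) and the adaptor gene Shc1 (0.95). Without SIRT5OE TAC 3 these 15 values lay between 0.89 and 0.96.

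The lists of partner genes were checked in the same fits. Their calls in SIRT5OE TAC against WT TAC are among the 1208 calls over all genes, a count that fell to as few as 3 under the alternatives, and the alternatives were not followed for each partner gene. Of 14 receptors and binding partners, 5 were called higher and 2 lower with TAC in WT hearts, 0 higher and 1 lower in SIRT5OE hearts, and 0 higher and 2 lower in SIRT5OE TAC than WT TAC hearts. Over all genes, 17.3% were called higher and 16.5% lower with TAC in WT hearts, and 3.12% and 1.86% in SIRT5OE hearts. In SIRT5OE TAC against WT TAC these shares were 3.8% and 3.43%. The same shares stand beside the counts of every list below, marker lists included. The endocytic receptor Lrp1, which takes up thrombospondins, had a log2 fold change of 1.57 in WT hearts (limma adjusted p = 0.000422) and a negative difference between SIRT5OE TAC and WT TAC (-0.93, 0.0476). The fibronectin receptor subunit Itga5 rose by 1.52 (0.00100) and was also lower in SIRT5OE TAC (-1.07, 0.0421). Cd36, the receptor of Thbs1 and Thbs2 and a fatty acid transporter, fell by 0.69 in WT (0.00238) and by 0.59 in SIRT5OE hearts (0.0468). Itga3 was not called in either comparison (0.35, adjusted p = 0.150, and -0.54, adjusted p = 0.0667).

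Of 12 genes of TGF-beta activation and response, 11 were called higher and 1 lower with TAC in WT hearts, 4 higher and 1 lower in SIRT5OE hearts, and 4 lower in SIRT5OE TAC than WT TAC hearts. In WT hearts Ltbp2 had a log2 fold change of 6.19 (limma adjusted p = 1.72e-05), and the ligand genes Tgfb2 and Tgfb3 rose by 2.90 (4.72e-05) and 1.57 (4.45e-05). In SIRT5OE TAC against WT TAC hearts Ltbp2 was at -2.20 (0.0407), Tgfb2 at -1.35 (0.0367) and Tgfb1 at -0.76 (0.0337). Of 12 matrix ligands of Comp, 9 passed the filter. Of these, 6 were called higher with TAC in each genotype, none lower, and 2 were lower in SIRT5OE TAC than WT TAC hearts. The collagen genes Col1a1, Col1a2 and Col14a1 rose by 2.88, 2.71 and 2.39 in WT hearts (limma adjusted p at most 3.10e-05). Col1a1, whose locus carries the transgene cassette in SIRT5OE mice, was at -1.35 (0.0340) and Col1a2 at -1.06 (0.0471) in SIRT5OE TAC against WT TAC. Fn1 was at -1.16 and not called (0.0511).

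Of 6 proteases that cut thrombospondins, Comp or their partners, 4 were called higher and 1 lower with TAC in WT hearts and 1 in each direction in SIRT5OE hearts. Adamts7 and Adamts12, which both cut Comp, went in opposite directions in WT hearts: Adamts7 fell by 1.53 in log2 units (limma adjusted p = 6.18e-05) and Adamts12 rose by 1.11 (0.00149). Mmp2 rose by 1.88 (7.86e-05). Adamts4 was the 1 protease called in SIRT5OE TAC against WT TAC hearts (-2.53, 0.0345), where Adamts7 was at 0.59 (0.0636) and Mmp2 at -0.63 (0.108).

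Genes of the endoplasmic reticulum, where Thbs4 binds ATF6, were checked too. Of 14, 2 were called higher and 1 lower with TAC in WT hearts (17.3% and 16.5% over all genes), 0 higher and 2 lower in SIRT5OE hearts (3.12% and 1.86%), and 3 lower in SIRT5OE TAC than WT TAC hearts (3.43%). The chaperone gene Hspa5 fell by 0.54 in log2 units (limma adjusted p = 0.000604) in WT hearts, where Pdia4 rose by 0.59 (0.00452) and Creld2 by 0.49 (0.0351). In SIRT5OE TAC against WT TAC hearts Pdia4 was at -0.58 (0.0342), Hyou1 at -0.51 (0.0342) and Creld2 at -0.58 (0.0496). In that comparison 13 of the 14 estimates were below 0 (median -0.33, beside 0.00 over all genes), and 10 had an unadjusted p under 0.05, beside 4823 of all 16690 genes. Of 5 genes of nitric oxide and VEGF signaling, which Thbs1 restrains, Prkg1 rose by 0.65 (0.0104) while Gucy1a1 fell by 0.76 (0.00163) and Kdr by 0.69 (0.0222) in WT hearts. None of these 5 was called in SIRT5OE TAC against WT TAC by limma, where 2 had an unadjusted p under 0.05. There Gucy1a1 was at 0.46 (adjusted p = 0.0695), Nos3 at -0.30 (0.149) and Gucy1b1 at 0.24 (0.234). No gene of any of these lists was called in the sham comparison of the genotypes or in the interaction by limma.

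Markers of activated fibroblasts moved with the members. Of 7 markers (Postn, Cilp, Meox1, Cthrc1, Fap, Aspn, Lox), 6 were called higher with TAC in WT and 5 in SIRT5OE hearts (17.3% and 3.12% over all genes), and 1 was lower in SIRT5OE TAC than WT TAC (3.43%). Their sum was 5029.9 to 6719 normalized counts in sham and 59501 to 168771 in TAC hearts of WT mice. In SIRT5OE hearts it was 4744 to 6797 in sham, 24917 to 30335 in TAC replicates 1, 2 and 4 and 148930 in SIRT5OE TAC 3. After subtracting group means its correlation with the members over the 15 hearts was 0.73 for Thbs2, 0.88 for Thbs3, 0.91 for Thbs1 and 0.95 for both Thbs4 and Comp (0.77 to 0.96 without SIRT5OE TAC 3). Of the 6 cardiomyocyte markers, 5 were called lower with TAC in WT hearts and 0 in SIRT5OE hearts (16.5% and 1.86% over all genes). Their sum in WT hearts was 2530057 to 3058339 after sham surgery and 1085752 to 2173673 after TAC. Myh6 fell most in counts, from a mean of 1218220 to 471203, while Actc1 was at 459860 and 446637. After the same subtraction the correlation of this sum with the members was negative (-0.66 for Comp to -0.86 for Thbs1). Without SIRT5OE TAC 3 it ran from -0.66 for Thbs3 to -0.86 for Thbs1. The part of these cell types in the results was not tested.

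Other cell types were checked by their markers. Tendon and cartilage markers, named because Comp is abundant there, numbered 11, of which 8 passed the filter and 4 were called higher with TAC in WT and 3 in SIRT5OE hearts. Their sum ran from 289.7 to 495 normalized counts in the sham hearts of both genotypes. With TAC it was 894 to 1466 in WT hearts, and in SIRT5OE hearts it was 476 to 668 in replicates 1, 2 and 4 and 1624 in replicate 3. Of 6 platelet markers 5 passed the filter, and none was called by limma or had an unadjusted p under 0.05 in any comparison, with a sum between 536 and 930.4 in every heart. Of 6 macrophage markers 5 were called higher with TAC in WT hearts (a sum of 13142 to 14254 after sham surgery and 19838 to 22816 after TAC) and 1 in SIRT5OE hearts (12014 to 15269 and 15225 to 23419), and all 6 had an unadjusted limma p under 0.05 in each genotype. C1qa was called lower in SIRT5OE TAC against WT TAC (-0.49, limma adjusted p = 0.0383). After subtracting group means, the tendon and cartilage sum correlated with the members at r 0.55 to 0.87. For the platelet sum r was -0.26 to -0.19, and for the macrophage sum -0.27 to -0.03. With SIRT5OE TAC 3 left out these were 0.38 to 0.58, -0.15 to 0.10 and -0.20 to 0.10. Of the 4 resident fibroblast markers, 2 were called higher with TAC in WT hearts and 0 in SIRT5OE hearts. In WT hearts they summed to 61190.1 to 69538 after sham surgery and 43184 to 68080.4 after TAC. Most of that sum was Gsn, at a mean of 59270 in WT sham and 52653 in WT TAC hearts. The means of the others were higher after TAC (Pdgfra 2208 and 2767, Tcf21 364 and 504, Dpt 4408 and 4608). Red cell and atrial markers, none of them called by limma or at an unadjusted p under 0.05, also varied with the members from heart to heart (r 0.54 to 0.72 for 5 red cell markers and 0.48 to 0.76 for 4 atrial markers, of which 2 passed the filter). Without SIRT5OE TAC 3 these were 0.39 to 0.66 and 0.27 to 0.50. WT TAC 4 had the highest red cell sum (115226) and SIRT5OE TAC 3 the next (79716), beside 46690 to 73047 in the other hearts, and SIRT5OE TAC 3 had the highest atrial sum (211 beside 76.3 to 183). The sums of 4 endothelial and of 5 smooth muscle and pericyte markers varied against the members (r -0.65 to -0.52 and -0.68 to -0.40), with 2 of the latter called higher with TAC in WT hearts. With SIRT5OE TAC 3 left out these correlations were -0.55 to -0.31 and -0.69 to -0.41. No marker on these lists was at 0 in all hearts. The part of these cells in the results was not tested.

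**Figure D5:**
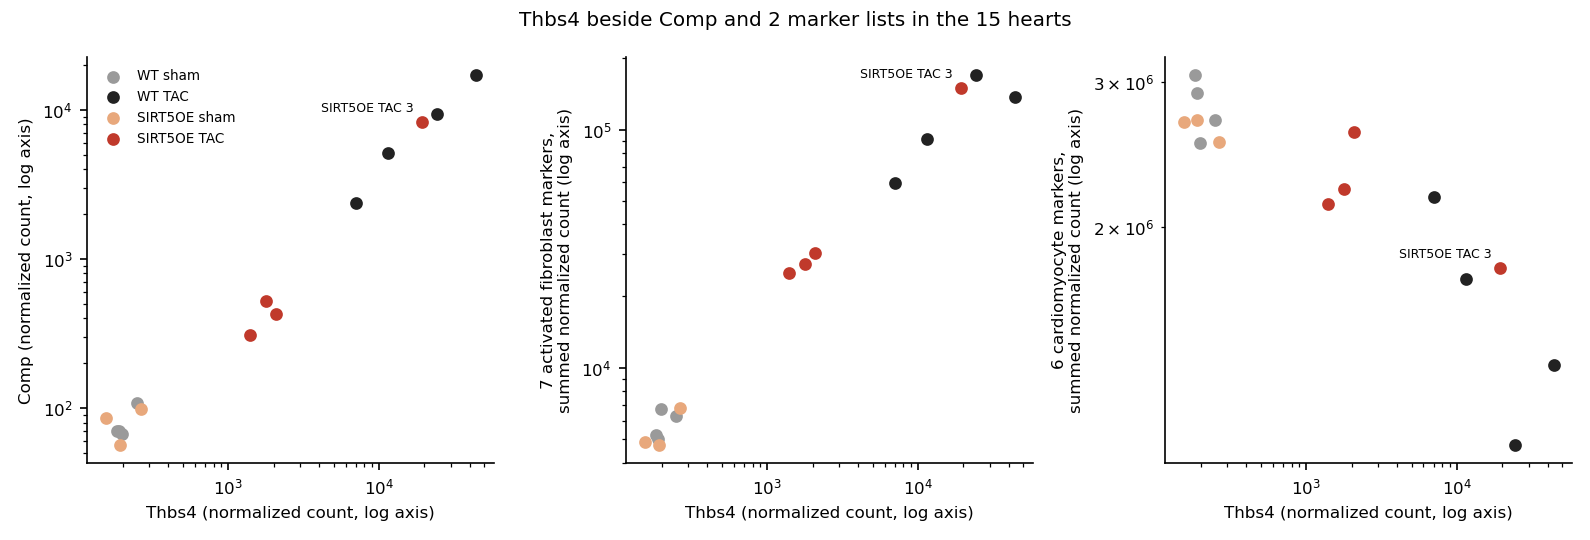
Thbs4 in each of the 15 hearts (normalized count, log axis) beside Comp, the sum of the 7 activated fibroblast markers and the sum of the 6 cardiomyocyte markers (normalized counts, log axes). Comp and the activated fibroblast sum rise with Thbs4 across the hearts, and SIRT5OE TAC 3 lies among the WT TAC hearts in both.

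Neighbouring genes were looked at for each member. Muc1, 2219 bases from the end of Thbs3, was called higher with TAC in WT hearts (log2 fold change 2.15, limma adjusted p = 0.000756) and lower in SIRT5OE TAC than WT TAC (-1.49, limma adjusted p = 0.0387), at 17.6 ± 9.47 normalized counts in WT sham and 76.9 ± 25.6 in WT TAC hearts. Smoc2, the nearest coding gene on the low-coordinate side of Thbs2, rose by 0.48 in WT (limma adjusted p = 0.000317) and by 0.46 in SIRT5OE hearts (0.00762), while Thbs2 was not called in either. Rasgrp1 beside Thbs1, Wdr27 on the other side of Thbs2, Serinc5 and Mtx3 beside Thbs4, and Upf1 and Crtc1 beside Comp were not called in either TAC comparison or in SIRT5OE TAC against WT TAC. Fsip1 beside Thbs1 did not pass the filter.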

How the data were processed

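The authors pseudoaligned the reads with kallisto to Ensembl mouse cDNA, summed them per gene with tximport and scaled each heart with DESeq2. FastQC, kallisto 0.43.1 and the build mm10 are named in the submitters' processing notes, while the study's methods name a later kallisto. The deposited values are a per-heart normalized signal, counts divided by a size factor, and are not whole numbers. At most 30.3% of them in any heart were whole multiples of a common step (within 0.02 of a step), so whole reads were not recovered and no count test was run. Read depth is therefore not known. The summed normalized counts do not give it, since the values had already been scaled per heart.

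Values were tested as log2(value + 1) with limma 3.58.1 (R 4.3.3), with a mean-variance trend, in 1 fit over the 4 groups, on genes with at least 10 normalized counts in at least 3 hearts. The study used a count model, which these values do not allow, and its 0.05 threshold was kept. The pseudocount makes fold changes of low genes too small. Alternatives changed the pseudocount, filter, scaling, groups fitted, replicate block, weights, variance trend and threshold, and left out each heart in turn. The labels name separate samples, and p-values measure the spread between them, in the main fit pooled over the 4 groups.

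The genes named were the 5 members, the 3 genes of smallest adjusted p per partner list in each of 2 comparisons (TAC against sham in WT, and SIRT5OE TAC against WT TAC), the 3 genes most like each member, and the nearest coding genes, of which 1 is not reported here. A few others served to check tissue and transgene, and Atf6 is named as the partner of Thbs4. Members and lists were chosen with earlier results of these data known. Promoters were read from RefSeq (GRCm38.p6) and gene positions and lengths from GENCODE vM21, which is not the annotation used for counting. Plots came from Python 3.11.15 and matplotlib 3.10.9.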

Additional observations from a re-analysis of the deposited data

Results flagged for a closer look

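SIRT5OE TAC 3 lay far from the other 3 hearts of its group in all 5 genes, with its gap to the next heart taking most of the group's range. It held 8279 normalized counts of Thbs1, 1642 of Thbs2, 1241 of Thbs3, 19200.1 of Thbs4 and 8286 of Comp, and was the highest heart each time. In WT sham hearts Comp was at 108 in replicate 1, above the other 3 hearts, which lay between 67.0 and 70.6. Of the 15 sets of 4 hearts examined for a distant heart, 6 had one. The rule's rate of about 1 in 20 by chance assumes normally distributed values. It was applied here to normalized counts that were not on a log scale, so that rate need not hold. The 5 sets with SIRT5OE TAC 3 share that heart and are not independent. The paper's own clustering also placed 1 SIRT5OE TAC animal, not numbered in its text, with the WT TAC mice.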

How the results depend on the processing

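The 4 calls for TAC in WT hearts held under every alternative, and no member was called in the sham comparison or the interaction under any. The 4 calls for TAC in SIRT5OE hearts became 2 when unfiltered, 2 in a fit of the compared groups alone, 1 without the mean-variance trend and 1 to 4 when each heart was left out in turn. The 2 calls for SIRT5OE TAC against WT TAC became 0 when unfiltered, 0 in a fit of the compared groups alone, 0 without the trend and 0 to 4 when each heart was left out. Over all genes the 1208 calls of that comparison became 231 when unfiltered, 3 in a fit of the compared groups alone, 42 without the trend and 20 with the block. Without the filter 26385 genes are tested in place of 16690. A fit of the compared groups alone rests on fewer hearts and on the spread of those hearts alone. With the replicate block, 1 member was called for TAC in SIRT5OE hearts and 0 for SIRT5OE TAC against WT TAC. Deviations of same-numbered hearts had correlations of -0.298 to 0.0779 over 21 pairs, none over 0.1 (median 0.0213). Those of differently numbered hearts ran from -0.183 to 0.207 over 63 pairs (median -0.00897). These values cannot settle whether the replicate numbers mark pairs or batches, because a shared effect on few genes would hardly move them.

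Directions reversed only in differences that were not called. In the sham comparison Thbs4 was at 0.046 with array weights, and Comp at -0.0045 with array weights and -0.015 with the replicate block. Without each heart in turn the sham difference ran from -0.31 to 0.27 for Thbs1, -0.25 to 0.13 for Thbs4 and -0.15 to 0.24 for Comp. Thbs2 with TAC in WT was at -0.14 with array weights and -0.10 to 0.34 without each heart in turn. The cause was not tested. Of 620 values of single genes under alternatives, 535 kept their direction and side of the threshold, 65 lost a call, 4 gained one and 16 changed direction. Groups of 3 or 4 hearts, wide spread among TAC hearts and deposited values without read counts limit the precision of every estimate.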
